A study of Mus musculus with 15 samples.

Results

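The response of mouse primary hepatocytes to interleukin-13 (IL-13) in the presence of glucagon was followed in all genes with at least 10 scaled reads in 3 or more of the 15 libraries of the experiment. This left 12703 of 24347 table entries, and 6 of the 15 libraries formed the comparison. A scaled read is an estimated read of a gene multiplied by 1 factor per library. Hepatocytes of wild-type mice were isolated by a collagenase digestion. The glucagon+rIL-13 group (n = 3 libraries) was given recombinant IL-13 (rIL-13) at 10 ng/mL for 2 h. Glucagon at 100 nM was then given for 3 h, with rIL-13 at 10 ng/mL still present. The glucagon group (n = 3) received 100 nM glucagon for 3 h without rIL-13. Vehicle, cAMP (100 µM for 3 h) and cAMP+rIL-13 groups (n = 3 each) gave the background and a second setting for rIL-13. The study's methods name young adult mice and mostly BALB/c animals, whereas the labels give a C57BL/6 strain, so the strain was not settled. Whether replicates stem from different mice or cultures is not stated, so the spread behind each p-value is that of these libraries and may be only technical. No group received rIL-13 without a stimulus.

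Glucagon is the fasting hormone of the pancreas. It binds its receptor on hepatocytes, raises cyclic AMP, and through protein kinase A and CREB switches on genes of glucose production and amino acid breakdown. IL-13 is a type 2 cytokine made by innate lymphoid cells and T helper cells, and on non-lymphoid cells it binds a receptor built of IL-13Rα1 and IL-4Rα, whose JAK kinases phosphorylate STAT factors. Among STAT target genes are CISH and the SOCS family, inhibitors that limit the signal. The comparison asks how rIL-13 changed the transcripts of hepatocytes that were exposed to glucagon.

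Between 15567578 and 20333649 estimated reads stood behind each of the 6 libraries. Vehicle library a stood apart from its group mates, with 101 genes more than 2-fold lower against at most 13 in any other library, and its deviations followed transcript length (r = -0.688 across 9475 genes, which are not independent replicates). The same correlation was -0.455 for glucagon+rIL-13 replicate 3 and 0.109 for the rIL-13 difference itself. Hepatocyte markers were high in both groups, with albumin (Alb) at 567100 to 608700 scaled reads with glucagon and 558100 to 586500 with rIL-13. Other liver cells left traces, and in bulk RNA a change in the number of cells of a type and a change of RNA per cell cannot be told apart. The 15 Kupffer cell markers summed to 8118 to 8240 scaled reads without and 8177 to 8322 with rIL-13, the 14 endothelial markers to 2722 to 2854 and 2593 to 2774, and the 13 stellate cell markers to 447.2 to 526.1 and 469.9 to 493.3. These sums include members that were themselves called, such as Slc40a1 (Kupffer) and Postn (stellate), which rose. Sums without such members were not computed, so similar sums do not show that the other members stayed level. The 10 monocyte and neutrophil markers summed to 197.8 to 207.5 scaled reads without and 196.1 to 219.9 with rIL-13. The 12 lymphocyte markers summed to 6.197 to 14.13 without and 11.24 to 13.61 with rIL-13. Among these markers, the neutrophil genes S100a8, S100a9 and Retnlg and the lymphocyte genes Cd3e, Cd3g and Nkg7 were at 0 in all 6 libraries.

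rIL-13 raised 445 genes and lowered 283 in glucagon-treated hepatocytes (limma on the log2 scale, adjusted p under 0.05), which is 3.5% and 2.23% of the genes tested and 5.73% together. Most differences were small, with a median log2 difference of 0.43 among genes that rose, -0.37 among those that fell and -0.002 over all tested genes. At least 2-fold changes were found for 55 genes that rose and 14 that fell, and 1.5-fold changes for 135 and 49. For 726 of the 728 called genes the 3 glucagon+rIL-13 libraries did not overlap the 3 glucagon libraries, which held for 24.2% of all tested genes. The calls use the same libraries, so this separation is no independent support for them. The number of calls depended on single libraries. It was 1218 (9.59%) without vehicle library a, all 728 genes among them, and it was 483 or 453 without glucagon replicate 1 or 3, and 430 or 437 without glucagon+rIL-13 replicate 1 or 2.

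**Figure D1:**
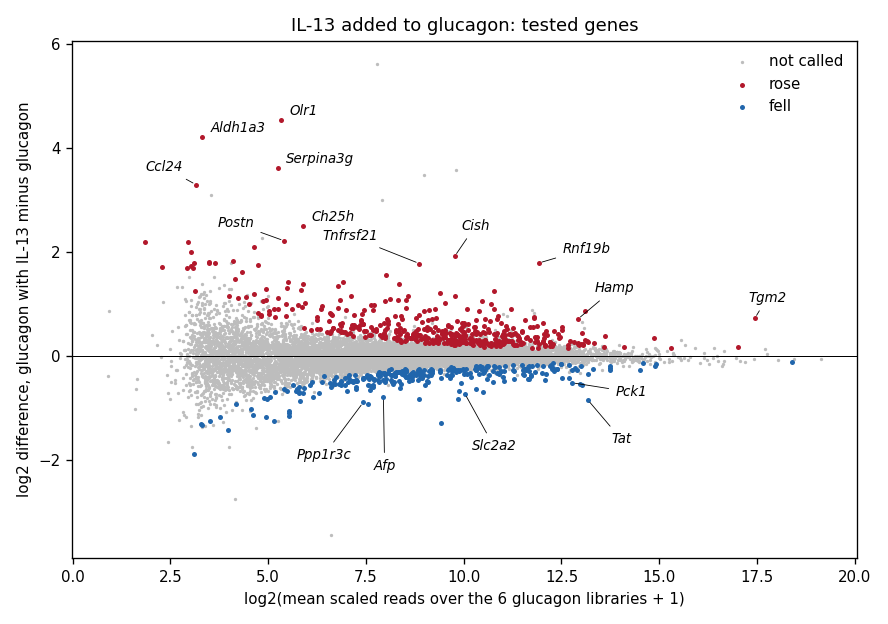
Log2 difference between the glucagon+rIL-13 and glucagon groups (y axis) against log2 of the mean scaled reads over the 6 libraries plus 1 (x axis), with 1 point for each of the 12703 tested genes. The 445 genes that rose are red and the 283 that fell are blue, and among the named genes Olr1 (4.52) and Serpina3g (3.61) rose from low levels while Tat (-0.84) and Pck1 (-0.52) fell at high levels.

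Transcripts of the receptor and its signalling chain gave 1 call. Of 13 tested IL-13 receptor, JAK and STAT genes 1 rose and none fell, with a median log2 difference of -0.02. Over all tested genes 3.5% rose and 2.23% fell, the shares to set beside this count and those of the lists below. A count of 1 in 13 is too small to tell from these shares. Some genes, such as Cxcl10 and Postn, belong to more than 1 list, so the counts of the lists are not independent of each other. The gene that rose was Il4ra, the IL-4Rα chain, at 595.7, 605.9 and 551.5 scaled reads in the 3 glucagon libraries and 752.5, 699.4 and 705.7 in the 3 glucagon+rIL-13 libraries. The groups did not overlap (log2 difference 0.30, SE 0.074, limma adjusted p = 0.0221), but the adjusted p was 0.111 without glucagon replicate 3 and 0.116 or 0.0512 without glucagon+rIL-13 replicate 1 or 2. In the brackets that follow, the log2 difference, its standard error and the adjusted p of limma are given in this order. Il13ra1, the chain that binds IL-13 itself, averaged 904.1 ± 122 (SD, n = 3) and 813 ± 15.1, with overlapping groups (adjusted p = 0.481). Neither Stat3 (-0.07, SE 0.066, adjusted p = 0.641) nor Stat6 (0.04, SE 0.059, adjusted p = 0.762) passed the test.

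Cish, Socs3 and Socs2, feedback inhibitors of cytokine receptors, rose. They were 3 of 16 tested SOCS and phosphatase feedback genes, of which 13 were not called, with a median log2 difference of 0.11. The 3 rises were found with each of the 15 libraries left out in turn. Cish, an inhibitor that docks on cytokine receptors, stood at 340.3, 361.8 and 395.6 scaled reads with glucagon and at 1429, 1366 and 1340 with rIL-13 added (1.91, SE 0.074, adjusted p = 1.33e-11). All glucagon+rIL-13 libraries lay far above the glucagon libraries, while vehicle ranged from 270.8 to 308.8. Socs3, the inhibitor of gp130 receptors, was already higher with glucagon (370.7, 459.4 and 425.5) than with vehicle (103.9 to 122.8), and with rIL-13 it reached 699.2, 743.4 and 578.3 (0.68, SE 0.095, adjusted p = 0.000161). Socs2, a regulator of growth hormone signalling, had its highest level with vehicle (853.3 to 1059). It averaged 397.3 ± 21.2 with glucagon and 523.9 ± 33.6 with rIL-13 added (0.40, SE 0.082, adjusted p = 0.00578). Socs1 read 10.87, 16.65 and 15.49 without and 16.17, 21.99 and 24.98 with rIL-13, with overlapping groups (adjusted p = 0.283).

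Windows around the annotated start of Cish, Socs3, Serpina3g and Hamp, which rose, and of Pck1, which fell, are printed because they hold motifs of the cytokine and hormone pathways. They were picked for these matches. Each runs from 250 bases before to 50 bases after the start, 5′ to 3′ on the strand of the gene, from RefSeq on GRCm38.p6: Cish at chr9:107296409-107296708 (plus strand), Socs3 at chr11:117969317-117969616 (minus strand), Serpina3g at chr12:104235897-104236196 (plus strand), Hamp at chr7:30943980-30944279 (minus strand) and Pck1 at chr2:173152823-173153122 (plus strand). Capitals mark matches to TTCNNNGAA, a STAT motif that reads the same on both strands. They also mark ACGTCA on either strand (TGACGT on the other), a core of the cAMP response element.
Cish: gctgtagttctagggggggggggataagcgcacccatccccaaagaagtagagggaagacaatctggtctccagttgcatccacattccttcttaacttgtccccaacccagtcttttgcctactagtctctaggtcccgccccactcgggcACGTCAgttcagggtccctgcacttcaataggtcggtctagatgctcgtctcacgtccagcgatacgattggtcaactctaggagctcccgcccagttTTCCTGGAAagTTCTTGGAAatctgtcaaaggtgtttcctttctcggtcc
Socs3: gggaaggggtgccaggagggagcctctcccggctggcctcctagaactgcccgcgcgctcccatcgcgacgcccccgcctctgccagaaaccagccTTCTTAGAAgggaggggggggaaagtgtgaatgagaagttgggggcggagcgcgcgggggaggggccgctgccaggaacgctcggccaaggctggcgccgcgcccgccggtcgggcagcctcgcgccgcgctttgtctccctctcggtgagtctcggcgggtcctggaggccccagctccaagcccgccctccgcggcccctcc
Serpina3g: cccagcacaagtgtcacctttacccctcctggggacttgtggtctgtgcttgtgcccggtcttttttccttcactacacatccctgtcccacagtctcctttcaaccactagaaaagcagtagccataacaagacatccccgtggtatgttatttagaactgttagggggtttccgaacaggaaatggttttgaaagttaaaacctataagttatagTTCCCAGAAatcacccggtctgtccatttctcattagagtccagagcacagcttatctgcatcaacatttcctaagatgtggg
Hamp: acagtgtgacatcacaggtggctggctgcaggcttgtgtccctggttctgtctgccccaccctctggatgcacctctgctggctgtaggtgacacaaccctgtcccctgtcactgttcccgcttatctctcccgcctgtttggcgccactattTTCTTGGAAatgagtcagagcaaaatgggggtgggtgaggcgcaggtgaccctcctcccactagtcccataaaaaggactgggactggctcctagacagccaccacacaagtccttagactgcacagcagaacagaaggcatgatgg
Pck1: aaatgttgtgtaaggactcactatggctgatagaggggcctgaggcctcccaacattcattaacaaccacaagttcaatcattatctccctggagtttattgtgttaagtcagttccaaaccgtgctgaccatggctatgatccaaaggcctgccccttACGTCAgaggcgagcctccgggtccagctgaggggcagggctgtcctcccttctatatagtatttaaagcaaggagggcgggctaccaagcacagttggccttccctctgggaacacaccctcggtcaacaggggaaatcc
Counted from the annotated start, which is 0, the first base of TTCNNNGAA lies at 0 and 11 in Cish, at -154 in Socs3, at -33 in Serpina3g and at -97 in Hamp. ACGTCA lies at -98 in Cish and at -91 in Pck1. TTCNNNGAA was found in 9.41% of 478 windows of genes that rose, 5.73% of 314 windows of genes that fell and 8.3% of all 32851 windows. The wider spacing TTCNNNNGAA was found in 6.9%, 5.41% and 6.95%, and ACGTCA in 11.1%, 8.92% and 7.51%. None of the printed windows holds TTCNNNNGAA. Windows were matched for 357 of the 445 genes that rose and 231 of the 283 that fell. The 32851 windows also cover genes that were not tested here, so they are an unlike background for the called genes. A match describes letters of the window and is not a binding site.

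Genes known to answer IL-4 and IL-13 in macrophages and epithelium had the highest median of the 26 pathway lists, 0.27. Lists and members were chosen with earlier results of these data known, so this rank is no independent evidence. Of 39 listed genes 16 were tested, of which 8 rose and none fell, and 6 to 10 rose as each library was left out. Ccl24 entered only through libraries with rIL-13, and without it 7 of 15 rose, with the same median. Postn, the matrix protein periostin, read 26.09, 8.878 and 10.33 with glucagon and 58.98, 53.4 and 91.17 with rIL-13 (2.21, SE 0.31, adjusted p = 0.00017). Ccl24, an eotaxin that attracts eosinophils, was at 1.087, 1.11 and 0 and at 14.27, 14.66 and 16.24 (3.29, SE 0.54, adjusted p = 0.0008). The Postn libraries of the groups did not overlap. At the other end of the scale Tgm2, the cross-linking enzyme transglutaminase 2, went from 132100, 138100 and 134100 to 223800, 233200 and 210200 (0.72, SE 0.061, adjusted p = 8.69e-07). The transcription factor Klf4 rose from 441.3 ± 29.3 to 723 ± 57.1 (0.71, SE 0.11, adjusted p = 0.000383), having averaged 111.1 with vehicle. Mrc1, the mannose receptor, rose from 57.27 ± 6.43 to 92.9 ± 4.94 (0.69, SE 0.15, adjusted p = 0.00671) and the repressor Bcl6 from 542.3 ± 18.7 to 765 ± 30.1 (0.50, SE 0.073, adjusted p = 0.000284). The zinc finger factor Egr2 rose from 7.609, 8.878 and 8.262 to 30.44, 20.94 and 23.73 (1.48, SE 0.32, adjusted p = 0.00801), with an adjusted p of 0.0562 without glucagon+rIL-13 replicate 1. Arg1, arginase, a marker of IL-4 and IL-13 in macrophages and a urea cycle enzyme in hepatocytes, averaged 878.8 ± 70.8 and 1024 ± 23.7 (adjusted p = 0.0854), with an adjusted p of 0.0198 without vehicle library a and 0.0424 without glucagon replicate 3. Mrc1 is also made by Kupffer and endothelial cells, whose part in the rise was not tested.

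Outside the lists, Rnf19b, a ubiquitin ligase, went from 1698, 1840 and 1705 to 6221, 6186 and 5661 (1.78, SE 0.056, adjusted p = 7.43e-13). Tnfrsf21, death receptor 6, went from 251.1, 195.3 and 186.9 to 732.5, 768.5 and 658.2 (1.77, SE 0.13, adjusted p = 1.55e-07). In both genes the vehicle libraries overlapped the glucagon libraries, and the glucagon+rIL-13 libraries lay above every vehicle library. Mmp13, a collagenase, rose from 64.46 ± 5.32 to 173.4 ± 6.7 (1.42, SE 0.13, adjusted p = 1.33e-06), the collagen gene Col27a1 from 178 ± 29.4 to 467 ± 70.5 (1.39, SE 0.15, adjusted p = 1.88e-05) and Pmm1, a phosphomannomutase, from 1041 ± 69.9 to 2480 ± 79.7 (1.25, SE 0.064, adjusted p = 5.91e-10). Clec7a, the beta-glucan receptor dectin-1, rose from 61.37 ± 3.22 to 158.6 ± 16.7 (1.35, SE 0.13, adjusted p = 2e-06) and Duox2, an oxidase that makes hydrogen peroxide, from 174.2 ± 14.7 to 374.2 ± 34.9 (1.10, SE 0.17, adjusted p = 0.000645). The same rule on size named Pcyox1l (1.55), the formin Fmnl2 (1.21), Pmepa1 (1.15), Fjx1 (1.15), the autophagy gene Nrbf2 (1.14) and Cemip, a hyaluronan-binding protein that passed narrowly (1.08, SE 0.3, adjusted p = 0.0464).

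Olr1, Ch25h and Aldh1a3 had larger ratios at lower levels and were chosen after their values were seen. Olr1, the scavenger receptor LOX-1, read 4.348, 1.11 and 2.066 with glucagon and 63.74, 64.92 and 97.42 with rIL-13 (4.52, SE 0.42, adjusted p = 1.26e-06). Ch25h, cholesterol 25-hydroxylase, went from 15.22, 16.65 and 18.59 to 98.93, 96.33 and 103.7 (2.50, SE 0.29, adjusted p = 2.36e-05). Aldh1a3, a retinaldehyde dehydrogenase, was listed at 0 in all 3 glucagon libraries and at 15.22, 14.66 and 23.73 with rIL-13, so no fold is given (adjusted p = 1.03e-05). Olr1, Aldh1a3 and Ccl24 belong to 25 genes that reached the minimum of 10 scaled reads only through libraries with rIL-13, of which 11 rose, so a difference between the groups is built into their selection.

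**Figure D2:**
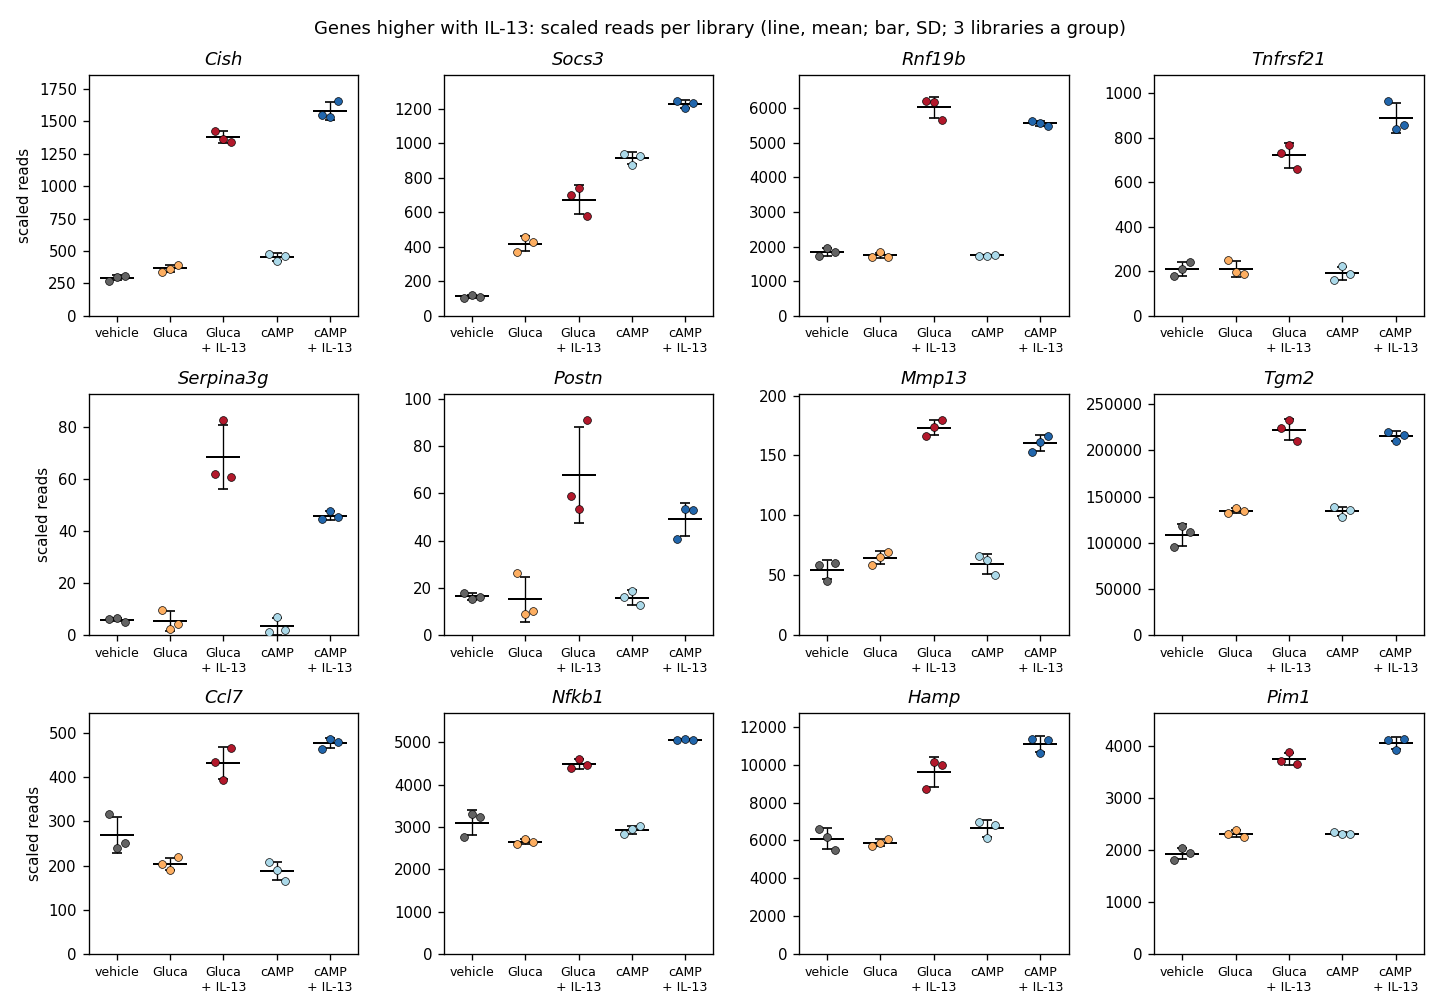
Scaled reads (y axis, linear from 0) of 12 genes that rose with rIL-13, by library, in the vehicle, glucagon (Gluca), glucagon+rIL-13, cAMP and cAMP+rIL-13 groups (points, libraries; line, mean; bar, SD; n = 3). Cish lies at 340.3 to 395.6 with glucagon and 1340 to 1429 with rIL-13 added, and in each of the 12 panels the glucagon+rIL-13 libraries lie above all glucagon libraries.

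STAT3 drives regulators inside the hepatocyte and acute phase proteins of the plasma. Of 24 tested STAT3 responsive regulators 6 rose and 1 fell (median 0.12), and of 31 acute phase plasma proteins 2 rose and 1 fell (median -0.04). The acute phase rises were 1 without glucagon replicate 2 or any 1 glucagon+rIL-13 replicate. Its falls were 0 without glucagon replicate 3 or glucagon+rIL-13 replicate 1 or 2, 2 without glucagon replicate 2, cAMP replicate 2 or vehicle library c and 3 without vehicle library a. Pim1, a survival kinase, went from 2313, 2395 and 2250 to 3713, 3888 and 3661 (0.69, SE 0.051, adjusted p = 1.01e-07). Junb, an AP-1 subunit, went from 3922, 4679 and 4113 to 6071, 6085 and 5567 (0.48, SE 0.061, adjusted p = 5.01e-05). The libraries of the groups did not overlap in either gene. Hif1a, the oxygen-regulated transcription factor, fell from 3755 ± 292 to 2743 ± 123 (-0.45, SE 0.08, adjusted p = 0.00169). Among plasma proteins serum amyloid Saa1 averaged 41320 ± 4280 and 42900 ± 1990 (adjusted p = 0.807) and fibrinogen Fgb 26000 ± 1170 and 27170 ± 746 (adjusted p = 0.616). Il1rn, the IL-1 receptor antagonist, rose (0.27, SE 0.066, adjusted p = 0.0196) and the heme carrier Hpx fell (-0.12, SE 0.029, adjusted p = 0.0169), and each was past the threshold in 22 of 26 alternatives. Serpina3g, a protease inhibitor, read 9.784, 2.22 and 4.131 and 61.83, 82.72 and 60.9 (3.61, SE 0.44, adjusted p = 3.94e-05). It too reached the minimum only through libraries with rIL-13, without it 1 of 30 acute phase genes rose, and reads of the closely similar serpin A3 copies may be split between them.

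Single genes of inflammation and of the interferon response rose. Of 31 tested inflammation and NF-kB target genes 5 rose and none fell (median 0.02), and of 33 interferon response genes 5 rose and 1 fell (median 0.01), the fall being lost without glucagon replicate 1 or 3 or any 1 glucagon+rIL-13 replicate. Ccl7, a chemokine that attracts monocytes, read 203.3, 190.9 and 219 with glucagon and 433.8, 394.7 and 465.9 with rIL-13 (1.07, SE 0.11, adjusted p = 2.66e-06). Ccl2, which acts on the same receptor, read 2794, 2803 and 2854 and 3942, 3989 and 4420 (0.55, SE 0.063, adjusted p = 2.04e-05). Glucagon libraries lay below vehicle in both genes, and with rIL-13 Ccl7 lay above the vehicle range of 240 to 315.9 while Ccl2 overlapped its range of 3564 to 4217. Nfkb1, the p105/p50 subunit of NF-kB, rose from 2659 ± 61.7 to 4486 ± 109 (0.75, SE 0.058, adjusted p = 1.55e-07). Mx1, an antiviral GTPase, rose from 33.08 ± 5.08 to 61.86 ± 3.32 (0.89, SE 0.14, adjusted p = 0.000535) and Irgm1, an immunity GTPase, from 746.5 ± 10.4 to 928.8 ± 31.5 (0.31, SE 0.059, adjusted p = 0.00283). Cxcl10, a chemokine counted in both lists, rose from 364.4 ± 11.3 to 511 ± 27.1 (0.49, SE 0.09, adjusted p = 0.00241), short of its vehicle range of 1228 to 1582.

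Hepcidin rose together with inhibitors of SMAD signalling. Of 22 tested iron and BMP-SMAD genes 5 rose and 2 fell (median -0.04), and 0 or 1 fell without any 1 of the 12 stimulated libraries other than glucagon replicate 1. Hamp, hepcidin, the hormone that blocks iron export, read 5693, 5887 and 6068 with glucagon and 8714, 10130 and 10000 with rIL-13 (0.71, SE 0.07, adjusted p = 2.63e-06). The glucagon libraries lay within the vehicle range of 5490 to 6608, and all glucagon+rIL-13 libraries lay above it. Its near-identical copy Hamp2, with which reads may be shared, went from 221.9 ± 2.89 to 378.3 ± 22.3 (0.77, SE 0.11, adjusted p = 0.000224). Slc40a1, the iron exporter ferroportin, rose from 1576 ± 125 to 1973 ± 75.5 (0.33, SE 0.064, adjusted p = 0.00364). Of 27 tested TGF-beta, YAP and matrix genes 8 rose and 1 fell (median 0.13), 5 rose without glucagon replicate 1 or 2 or any 1 glucagon+rIL-13 replicate, and 4 fell without vehicle library a. Smad7, the inhibitory SMAD, rose from 472.4 ± 67.8 to 773.4 ± 44.6 (0.72, SE 0.11, adjusted p = 0.000366), the SMAD repressor Skil from 1146 ± 112 to 1859 ± 61.6 (0.70, SE 0.091, adjusted p = 7.39e-05) and the receptor Tgfbr1 from 775.1 ± 81.9 to 1193 ± 67.8 (0.63, SE 0.092, adjusted p = 0.000284). Plaur, the urokinase receptor, rose from 1318, 1429 and 1422 to 2300, 2529 and 2248 (0.76, SE 0.055, adjusted p = 6.81e-08).

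Genes of glucose production fell in part, and none rose. Of 24 tested gluconeogenesis genes 6 fell, with a median log2 difference of -0.09, and 5 to 7 fell as each library was left out. Pck1, the PEP carboxykinase that turns oxaloacetate toward glucose, read 8136, 8188 and 8339 with glucagon and 5667, 5875 and 5679 with rIL-13 (-0.52, SE 0.051, adjusted p = 2.58e-06). The glucagon+rIL-13 libraries lay below every glucagon library and far above vehicle at 1015 to 1192. G6pc, the glucose-6-phosphatase that releases free glucose, was at 619.6, 607 and 602.1 with glucagon, 498.5, 504.7 and 498.3 with rIL-13 and 66.99 to 76.61 with vehicle. This separated the groups fully (-0.28, SE 0.064, adjusted p = 0.0116), with an adjusted p of 0.0501 without glucagon+rIL-13 replicate 1. The glucose transporter Slc2a2 fell from 1313, 1284 and 1304 to 774.3, 792.6 and 791.8 (-0.73, SE 0.065, adjusted p = 8.69e-07), below the vehicle range of 856.1 to 949. Gpt2, which feeds alanine into pyruvate, fell from 9894 ± 338 to 6751 ± 356 (-0.55, SE 0.057, adjusted p = 4.53e-06). Fructose bisphosphatase Fbp1 (-0.05, SE 0.07, adjusted p = 0.792) and pyruvate carboxylase Pcx (0.14, SE 0.065, adjusted p = 0.258) did not pass and had overlapping groups.

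Hnf4a, Ppargc1a and Foxo1, regulators of the glucose programme, had negative log2 differences, and of these only that of Hnf4a was called. The wider list of hepatocyte transcription factors gave no single direction. Hnf4a, a nuclear receptor of hepatocytes, was at 5499, 5691 and 5472 with glucagon and 4656, 4762 and 4275 with rIL-13 (-0.28, SE 0.065, adjusted p = 0.0129). The groups did not overlap, and the adjusted p was 0.0529 without glucagon replicate 2 and 0.0712 without glucagon+rIL-13 replicate 3. Ppargc1a, the coactivator PGC-1α, read 547.9, 517.2 and 451.3 and 404.3, 404.2 and 393.4, which do not overlap, but it did not pass (-0.33, SE 0.19, adjusted p = 0.396). Its vehicle libraries ranged from 25.19 to 54.16, library a lowest, and without that library the adjusted p was 0.0115. Foxo1, a transcription factor that insulin inhibits, did not pass (-0.10, SE 0.083, adjusted p = 0.575). Of 26 tested hepatocyte transcription factors 6 rose and 2 fell (median -0.04), 0 or 1 fell without glucagon replicate 2 or 3 or any 1 glucagon+rIL-13 replicate, and 4 fell without vehicle library a. The pioneer factor Foxa1 rose from 463.2 ± 33.1 to 665 ± 10.8 (0.52, SE 0.1, adjusted p = 0.0031), its relative Foxa3 from 2731 ± 180 to 3443 ± 143 (0.34, SE 0.063, adjusted p = 0.00287) and Cebpa from 1742 ± 122 to 2279 ± 80.8 (0.39, SE 0.058, adjusted p = 0.000336).

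**Figure D3:**
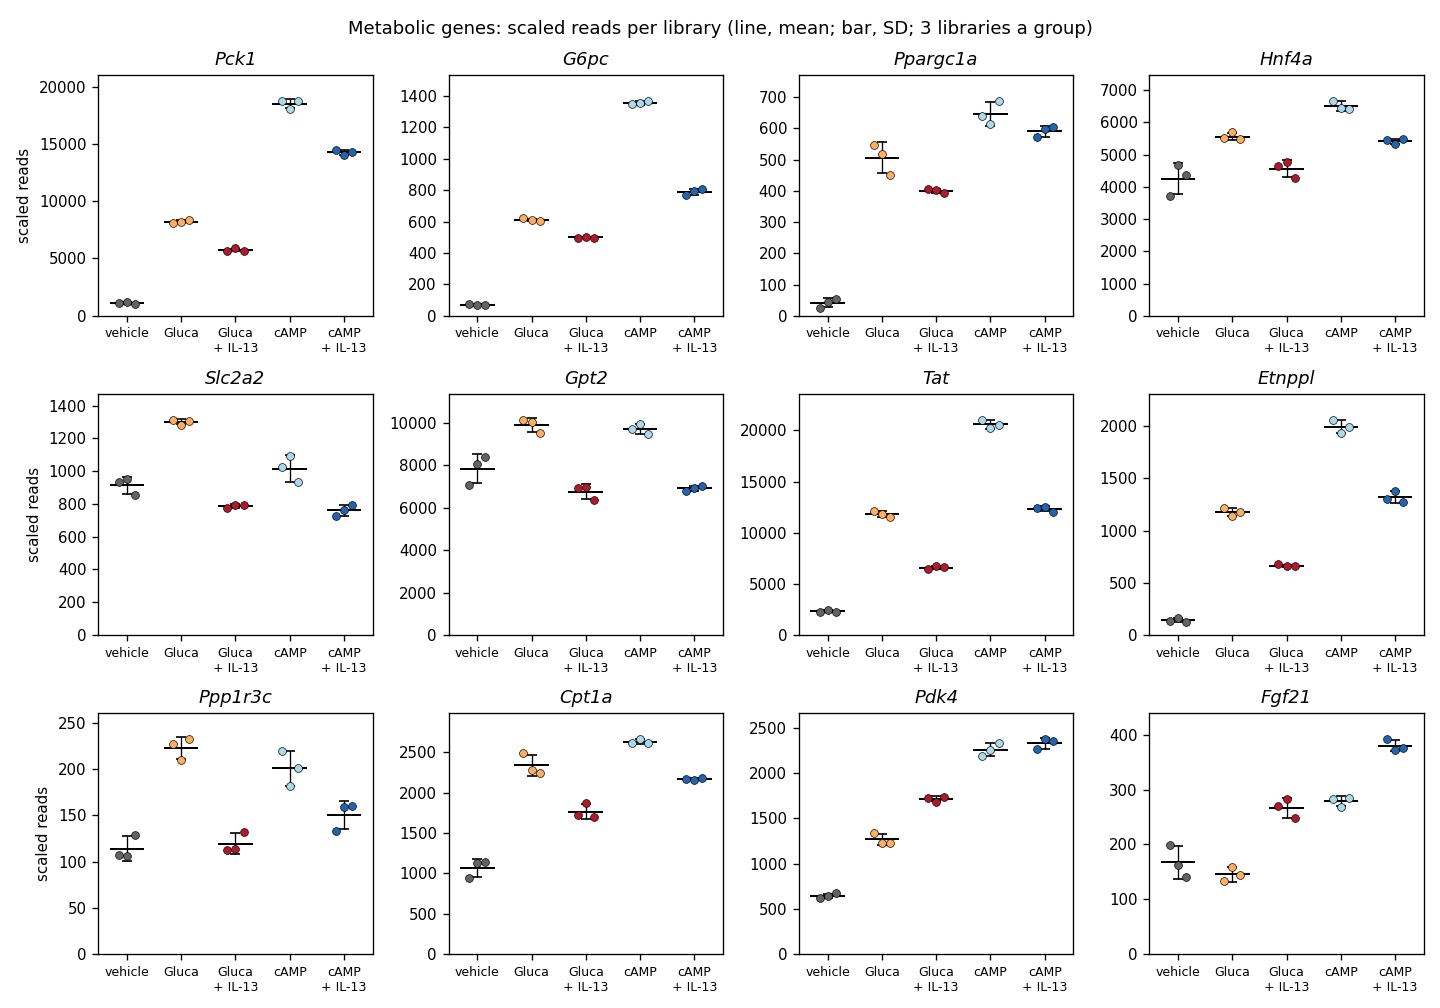
Scaled reads (y axis, linear from 0) of 12 metabolic genes by library in the vehicle, glucagon (Gluca), glucagon+rIL-13, cAMP and cAMP+rIL-13 groups (points, libraries; line, mean; bar, SD; n = 3). Pck1 lies at 1015 to 1192 with vehicle, 8136 to 8339 with glucagon and 5667 to 5875 with rIL-13 added, whereas Pdk4 and Fgf21 are higher with rIL-13 than with glucagon alone.

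Some enzymes and carriers of amino acid breakdown fell, while most were not called. Of 35 tested genes of amino acid breakdown and the urea cycle 6 fell and 1 rose (median -0.02), and 6 to 8 fell as each library was left out. Tat, tyrosine aminotransferase, read 12160, 11790 and 11570 with glucagon, 6422, 6710 and 6654 with rIL-13 and 2295 to 2408 with vehicle (-0.84, SE 0.041, adjusted p = 3.77e-10). Etnppl, an ethanolamine-phosphate lyase, read 1216, 1144 and 1179, then 675.4, 662.8 and 656.9, with vehicle at 120.7 to 160.3 (-0.83, SE 0.079, adjusted p = 1.89e-06). In both genes the glucagon+rIL-13 libraries lay between vehicle and glucagon. The ornithine carrier Slc25a15 fell from 2426 ± 144 to 1736 ± 21.3 (-0.48, SE 0.051, adjusted p = 7.14e-06), ornithine aminotransferase Oat from 1216 ± 87.6 to 947.9 ± 14.9 (-0.36, SE 0.059, adjusted p = 0.00101) and the amino acid transporter Slc38a4 from 11040 ± 447 to 9262 ± 207 (-0.25, SE 0.048, adjusted p = 0.00308). The related transporter Slc38a2 rose from 2291 ± 107 to 3006 ± 33.6 (0.39, SE 0.059, adjusted p = 0.000365). Cps1, the entry enzyme of the urea cycle, averaged 4159 ± 298 and 3645 ± 178 (adjusted p = 0.149, and 0.0368 without vehicle library a).

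Target genes of cAMP did not move as 1 group. The list of CREB and other cAMP targets held 35 tested genes, with 6 rises, 5 falls and a median of 0.08. The nuclear receptor Nr4a1 was at 2523, 2835 and 2917 with glucagon and 2662, 2807 and 2507 with rIL-13 (-0.05, SE 0.067, adjusted p = 0.751), against 302.2 to 341.3 with vehicle. The kinase Sik1 averaged 8406 ± 674 and 9243 ± 657 (adjusted p = 0.415). The groups overlapped in both. Ppp1r3c, which brings protein phosphatase 1 to glycogen, fell from 227.2, 209.7 and 232.4 to 112.2, 114.1 and 132.4 (-0.90, SE 0.11, adjusted p = 4.64e-05), into the vehicle range of 106.1 to 129.2 except for 1 library. Its relative Ppp1r3g fell from 68.48 ± 8.72 to 40.99 ± 2.86 (-0.72, SE 0.13, adjusted p = 0.00253). Of 31 genes of the glucagon receptor and cAMP machinery 1 rose and 1 fell (median 0.03). The rise was lost without glucagon replicate 1 or 3, glucagon+rIL-13 replicate 1 or 2 or cAMP+rIL-13 replicate 1, and 2 rose without vehicle library a. The gene that fell was the cAMP phosphodiesterase Pde4d, which went from 918.6 ± 48.5 to 686.9 ± 23.8 (-0.42, SE 0.068, adjusted p = 0.0008). Among 33 FOXO target genes, a list drawn up after the study had singled out that pathway in the same samples and thus no independent evidence of a direction, 5 rose and 5 fell (median -0.05). Its rises were 2 or 3 without any 1 glucagon, glucagon+rIL-13 or cAMP+rIL-13 library or cAMP replicate 1 or 3. Its falls were 2 or 3 without glucagon replicate 1, glucagon+rIL-13 replicate 1 or 2, cAMP replicate 1 or 3 or any 1 cAMP+rIL-13 library. Sesn1, a stress-induced inhibitor of mTORC1, fell from 222.1 ± 15.9 to 150.7 ± 4.69 (-0.55, SE 0.095, adjusted p = 0.00137).

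Lipid, glycogen and bile acid genes changed singly. Of 28 tested genes of fatty acid oxidation and ketogenesis 2 rose and 2 fell (median -0.06). Pdk4, which shuts pyruvate dehydrogenase, rose from 1338, 1231 and 1231 to 1720, 1683 and 1739 (0.44, SE 0.054, adjusted p = 3.94e-05). Fgf21, a fasting hormone of the liver, rose from 132.6, 158.7 and 144.6 to 269.2, 282.7 and 247.3 (0.87, SE 0.11, adjusted p = 3.99e-05). In both genes the groups did not overlap. Cpt1a, the gate of fatty acid import into mitochondria, fell from 2337 ± 131 to 1763 ± 92.6 (-0.41, SE 0.068, adjusted p = 0.00102) and the ketone body enzyme Bdh1 from 446.8 ± 9.77 to 344.8 ± 7.83 (-0.37, SE 0.067, adjusted p = 0.00187). Of 21 lipogenesis genes 1 fell and none rose (median -0.05), and of 32 glycogen and glycolysis genes 1 rose and 3 fell (median -0.06). Without vehicle library a 5 fatty acid oxidation, 4 lipogenesis and 6 glycogen and glycolysis genes fell. The lipogenesis gene, Elovl6, was at the threshold, and its list had 3 falls without vehicle library c and none without any 1 of 11 other libraries. The rises of the glycogen list and of the cholesterol list were each lost without any 1 of 10 libraries. Of 26 cholesterol genes 1 rose and 3 fell (median -0.02), 1 falling without glucagon replicate 1 or 3 or glucagon+rIL-13 replicate 1, and Insig2, a brake on SREBP processing, fell from 3856 ± 252 to 2942 ± 146 (-0.39, SE 0.063, adjusted p = 0.000718). Of 24 bile acid and cytochrome P450 genes 3 fell and none rose (median 0.0), among them Baat, which conjugates bile acids, from 298.1 ± 23.3 to 209.3 ± 22.4 (-0.51, SE 0.1, adjusted p = 0.00386). None of 26 respiratory chain genes passed the limma test (median -0.02), with all libraries or with any 1 left out.

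The rule on size named further genes that fell. Afp, alpha-fetoprotein, a plasma protein of the fetal liver, read 313.1, 301.9 and 319.1 with glucagon, 163.6, 183.2 and 193.6 with rIL-13 and 61.41 to 64.02 with vehicle (-0.79, SE 0.088, adjusted p = 1.29e-05). Rapgef4, the cAMP-activated exchange factor EPAC2, fell from 1549 ± 83.6 to 995.6 ± 59.7 (-0.64, SE 0.074, adjusted p = 1.89e-05). Bhlhe41, a clock repressor, fell from 590.1 ± 61.1 to 330.8 ± 43.1 (-0.84, SE 0.1, adjusted p = 3.5e-05) and Arrdc3, an arrestin family protein, from 1164 ± 120 to 731.1 ± 65 (-0.67, SE 0.079, adjusted p = 2.38e-05). The rule takes only genes whose 3 and 3 libraries do not overlap. The same rule named Tfcp2l1 (-0.70), Ccrl2 (-0.68), Hmgb2 (-0.65), the steroid dehydrogenase Akr1c14 (-0.62) and the activin subunit Inhbb (-0.59). The entry 8430408G22Rik, named Depp1 in RefSeq, was left out by the rule as a clone name and added after its values were seen. It fell from 849, 1057 and 1010 to 414.8, 403.1 and 360.9 (-1.30, SE 0.082, adjusted p = 1.24e-08), and vehicle lay at 2606 to 2793.

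Some stress and growth genes rose. Of 27 tested genes of the unfolded protein and amino acid stress response 6 rose and 1 fell (median 0.09), and 4 to 8 rose as each library was left out. The fall was lost without glucagon replicate 1 or 3 or any 1 library with rIL-13. Chac1, which degrades glutathione, rose from 3111, 3389 and 3384 to 5195, 5108 and 5023 (0.63, SE 0.049, adjusted p = 1.55e-07). The pseudokinase Trib3 rose from 1298 ± 64.7 to 1843 ± 59.7 (0.51, SE 0.055, adjusted p = 9.14e-06) and the chaperone Hspa5 from 26280 ± 630 to 33250 ± 584 (0.34, SE 0.038, adjusted p = 1.55e-05). With glucagon alone all 3 genes lay below vehicle, which ranged from 3679 to 3997, 2332 to 2462 and 33580 to 35890 in this order. Of 22 insulin and IGF axis genes 5 rose and none fell (median 0.08), 3 rising without glucagon replicate 1 or 3 or any 1 glucagon+rIL-13 replicate. The adaptor Grb10 rose from 248.3 ± 16.3 to 419.6 ± 19.2 (0.76, SE 0.1, adjusted p = 9.41e-05) and the growth factor Igf1 from 4847 ± 127 to 6183 ± 247 (0.35, SE 0.049, adjusted p = 0.00017). Of 23 EGFR ligand and MAPK feedback genes 2 rose and 4 fell (median -0.07). There 1 rose without cAMP+rIL-13 replicate 1 or any 1 glucagon or glucagon+rIL-13 library, and 3 to 6 fell as each library was left out. The ERK phosphatase Dusp6 fell from 863.8 ± 34.3 to 665.4 ± 23.6 (-0.38, SE 0.054, adjusted p = 0.000212). Of 24 MYC, PIM and cell cycle entry genes 3 rose and none fell (median 0.06), 1 rising without glucagon replicate 2 or 3 or glucagon+rIL-13 replicate 1 or 2 and 5 rising without vehicle library a. Myc itself averaged 2743 ± 93.9 and 2634 ± 19.9 (adjusted p = 0.606). Of 26 heat shock and dissociation stress genes 3 rose and 1 fell (median 0.09), 6 rising without vehicle library a and the fall lost without glucagon+rIL-13 replicate 1.

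**Figure D4:**
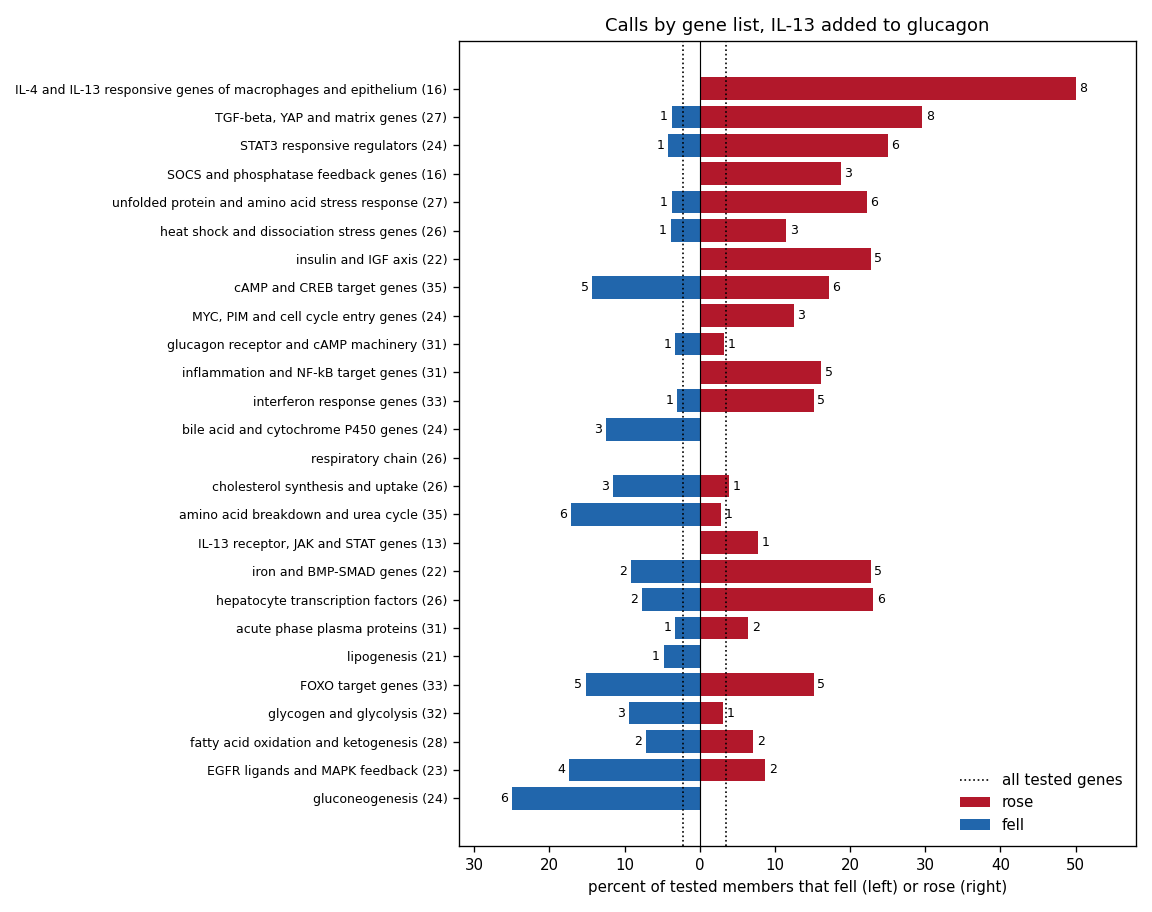
Percent of the tested members of each of 26 gene lists that fell (left, blue) or rose (right, red) with rIL-13 in glucagon-treated hepatocytes, with the number called beside each bar and the number tested in brackets. Dotted lines mark all tested genes (2.23% fell and 3.5% rose), and the gluconeogenesis list has 6 falls and no rise among 24 genes.

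Markers of other liver cells moved singly and in both directions. Of 14 tested endothelial markers 2 rose and 3 fell, with 1 falling without cAMP replicate 3, cAMP+rIL-13 replicate 1 or 3, glucagon replicate 2 or any 1 glucagon+rIL-13 replicate and 1 rising without glucagon replicate 2 or 3 or glucagon+rIL-13 replicate 1 or 2. Pecam1 rose from 269.5 ± 35.1 to 387.9 ± 14.1 (0.53, SE 0.09, adjusted p = 0.00123), while Lyve1 fell from 182.8 ± 10.9 to 118.1 ± 18 (-0.64, SE 0.11, adjusted p = 0.0015). Of 14 Kupffer cell markers Slc40a1 rose and none fell, and the Kupffer lectin Clec4f averaged 129.7 ± 19.2 and 120.2 ± 26.3 (adjusted p = 0.744). Of 10 stellate cell and fibroblast markers Postn rose and none fell. Of 4 tested cholangiocyte markers Sox9 rose from 1056 ± 74.1 to 1466 ± 136 (0.47, SE 0.087, adjusted p = 0.00246). The 9 listed cholangiocyte markers summed to 13270 to 13930 without and 15030 to 15250 with rIL-13, mostly Spp1 (12260 ± 422 and 13390 ± 265, adjusted p = 0.103, and 0.0338 without vehicle library a). Of 4 tested monocyte and neutrophil markers 1 rose and 1 fell. The rise, of Csf3r, was lost without glucagon replicate 1, and the fall, of Ptprc, without any 1 library other than glucagon replicate 3 or vehicle library a or c. The part of these cells in the results was not tested.

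rIL-13 was also added to cAMP, in libraries that share none with the glucagon comparison. There 495 genes were called (3.9% of those tested), of which 320 rose (2.52%) and 175 fell (1.38%). The number of genes called in both settings was 320 too, each with the same sign, which is 44% of the glucagon calls and 64.6% of the cAMP calls. Of the 728 glucagon calls 696 (95.6%) had the same sign with cAMP, against 64.4% of all tested genes. Over the 728 genes, which are not independent replicates, the effects correlated with r = 0.877, and over all tested genes with r = 0.43. The 728 include 11 genes, Serpina3g among them, that reached the minimum level only through libraries with rIL-13. A rise is built into their selection, and r was not computed without them. The log2 difference of Cish was 1.91 with glucagon and 1.80 with cAMP, that of Rnf19b 1.78 and 1.67, that of Serpina3g 3.61 and 3.72 and that of Tat -0.84 and -0.74.

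No gene passed the limma test of the difference between the rIL-13 effects in the 2 settings (smallest adjusted p = 0.322), and 608 genes (4.79%) did at an unadjusted p under 0.05. G6pc had the smallest p. It fell from 609.6 ± 9.03 to 500.5 ± 3.63 with glucagon and from 1356 ± 12.4 to 787.8 ± 19.8 with cAMP, log2 differences of -0.28 and -0.78 (difference 0.50, unadjusted p = 3.56e-05, adjusted p = 0.322). Pdk4 differed by 0.44 and 0.05 (unadjusted p = 7.59e-05) and Herpud1, an endoplasmic reticulum stress gene, by 0.39 and -0.01 (unadjusted p = 0.000151). Without vehicle library a 2 genes passed (0.0157%), G6pc (adjusted p = 0.0212) and Ppp1r10, a phosphatase 1 regulator named after its values were seen, at 0.63 and -0.08 (adjusted p = 0.00453). Without cAMP+rIL-13 replicate 3, 1 gene passed, Mup8, a major urinary protein gene whose reads may be shared with its close relatives.

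**Figure D5:**
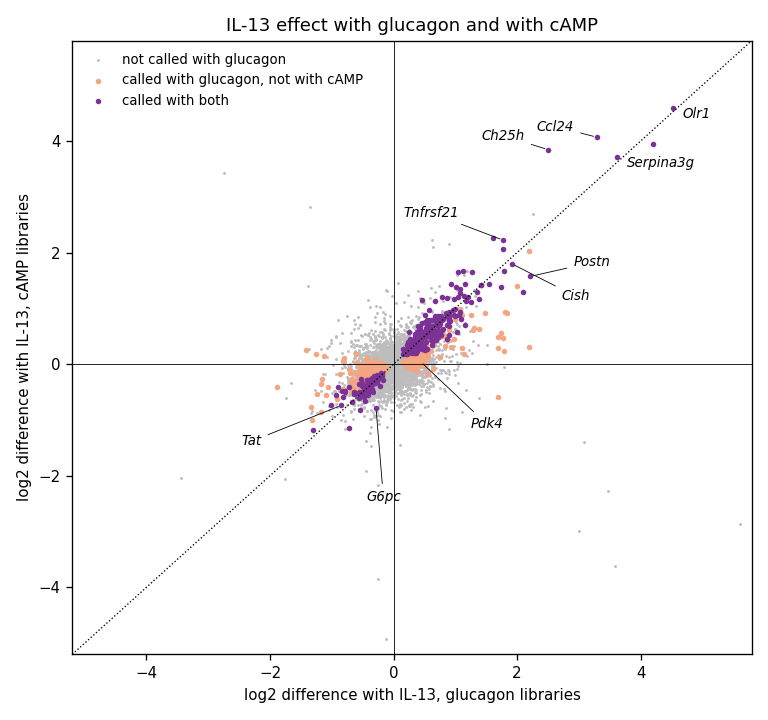
Log2 difference with rIL-13 in the cAMP libraries (y axis) against that in the glucagon libraries (x axis) for each of the 12703 tested genes, with the dotted line marking equal effects. The 320 genes called in both settings are purple and have the same sign on both axes, and G6pc (-0.28 and -0.78) lies below the line.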

How the data were processed

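Total RNA of primary mouse hepatocytes was sequenced by the authors with a TruSeq kit as single-end reads. The submitters' processing notes name TopHat 1.3.2, Cufflinks 2.0.2 and mm10, while the annotation and the use of strand are not given in the sources used here. The deposited signal values are estimated reads per gene multiplied by the authors with 1 factor per library, and the deposited FPKM values were used for an alternative and for transcript length only. Estimated reads are not counted molecules, and paralogs may share them. Groups follow titles and treatments, as the description of the cAMP samples calls them controls. Vehicle columns carry no replicate number and are called libraries a, b and c.

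Genes with at least 10 scaled reads in 3 of the 15 libraries were tested with limma 3.58.1 (R 4.3.3) on log2(scaled reads + 1), with 1 mean per group over all 15 libraries, a trended and robust spread and Benjamini-Hochberg adjustment over 12703 genes. Log2 differences on this scale understate the change of low genes. Named genes are those the study turns on, the 14 largest rises and 14 largest falls among called genes without overlap and with a mean of at least 100 scaled reads, and per list the 4 largest called members with a mean of at least 20. Other named genes did not pass or were chosen after their values were seen. Members and lists were chosen with earlier results of these data known. Alternatives changed the pseudocount, filter, scaling, unit, samples, block or 1 library at a time.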

Additional observations from a re-analysis of the deposited data

How the results depend on the processing

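Of 116 named genes that were called, 88 stayed past the threshold in every alternative run for them, 28 lost the call in at least 1 and none changed sign. There were 26 alternatives, or 25 for 4 of these genes that did not reach the minimum of 50 scaled reads. Among named genes that were not called, leaving out 1 library gave log2 differences of -0.28 to 0.04 for Clec4f and -0.02 to 0.13 for Saa1. Of those genes, Arg1 passed in 6 alternatives (smallest adjusted p of limma 0.0197), Ppargc1a in 5 (0.00442), Cps1 in 4 (0.011), Spp1 in 4 (0.0117) and Pcx in 2 (0.0423). The number of called genes was within 1.5 times the 728 with other pseudocounts, filters and scalings and with FPKM. It was 1241 (745 rose, 496 fell) over the 12 stimulated libraries without vehicle. Leaving out 1 library gave 430 to 1218 called genes, 270 to 720 that rose and 158 to 498 that fell. The difference between the rIL-13 effects was called for 4 genes without vehicle, 1 gene with FPKM and 0 to 2 genes with 1 library left out. Whether replicate numbers pair the samples was not settled. Deviations of same-numbered glucagon and glucagon+rIL-13 libraries correlated at 0.306, 0.486 and -0.115, and those of differently numbered ones at -0.432 to 0.231. With the replicate block, 1009 genes were called over the 12 stimulated libraries, where 1 gene passed the test of the difference, and 1350 (828 rose, 522 fell) over the 6 glucagon libraries. Without the block the counts were 1241 and 892. Count models (edgeR, DESeq2) were not run. The scaled values derive from estimated reads, which were not all whole. With the factor of each library removed, 94.47 to 98.63% of its values above 0 lay close to a whole read. Group sizes of 3 and the spread of vehicle library a limit which small differences were called.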
